A study of Oryza sativa with 4 samples.

Results

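The strigolactone pathway of rice was followed here through 10 genes, from the cleavage of carotenoids to the branching regulators at its end, in leaves of plants grown from seeds that had matured at different temperatures. The genes were taken by Rice Annotation Project identifier for their place in the pathway, 10 of the 37858 in the deposited table. Earlier results of these data were known when they were chosen, and the paper had reported OsSLB1 as lower in plants from heated seeds. Beside the sequencing, the paper measured OsSLB1 as lower by RT-qPCR in leaves and in roots. It also reported more methylation at the OsSLB1 promoter in heated seeds and in roots of their plants. Those measurements are not part of the data used here. The leaves were fully developed leaves of the cultivar Nipponbare, collected at the vegetative stage. They came from control seeds matured at 25 °C (CS plants, n = 2) and from heated seeds matured at 30 °C (HDS plants, n = 2), and all plants of both groups grew under natural conditions. The labels name no transgene or mutation. A biological replicate was a single plant in the study's terms, so each group is known from 2 plants only.

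Strigolactones are plant hormones that hold back the outgrowth of axillary buds, which in rice become tillers. Synthesis starts in plastids, where OsD27 isomerizes beta-carotene and the cleavage dioxygenases OsD17 (CCD7) and OsD10 (CCD8) turn the product into carlactone, which cytochrome P450 enzymes of the MAX1 type, among them OsSLB1 and OsSLB2, oxidize further. In the responding cell the hormone binds the hydrolase OsD14, the F-box protein OsD3 joins it, and the repressor OsD53 is marked for degradation. OsD53 otherwise holds back transcription factors such as OsIPA1, and TB1 (FC1) is a TCP factor that keeps buds dormant.

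The 4 libraries held between 15444235 and 17298384 expected counts, which are RSEM's estimates of the reads that belong to each gene, and CPM values are counts set to a common library size with edgeR's TMM factors. A count of 0 allows up to 3 counts, which is between 0.168 and 0.205 CPM, depending on the library. CPM is not corrected for transcript length, so levels were compared between libraries and not between genes. As no source used here names leaf, root or meristem marker genes by identifier, the check of the tissue rests on identifiers drawn up for it from general knowledge. The 4 leaf genes summed to 11340 and 5533 CPM in CS replicates 1 and 2 and to 4278 and 4529 CPM in HDS replicates 1 and 2. In edgeR's exact test HDS plants were lower in 3 of these 4 by the study's criteria, against 3.70% of all genes with at least 1 count. These criteria ask for an unadjusted P under 0.05 together with a log2 fold change of 0.37 or more in size. Most of the leaf sum was 1 gene, Os12g0274700, with 8612 and 3949 CPM in CS replicates 1 and 2, and this gene and Os01g0600900 were the ones in which CS replicate 1 stood apart. The 4th leaf gene, Os11g0707000, went the other way, with 986 and 881 CPM in CS replicates 1 and 2 and 1101 and 1129 CPM in HDS replicates 1 and 2. The 3 root genes stayed between 3.22 and 4.79 CPM, with 2 of the 3 at 0 in every library. The 3 meristem genes had 1 count in all libraries together. In bulk leaf RNA, fewer cells of a type and less RNA per cell cannot be told apart.

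Of the 10 genes, 8 had counts and OsSLB2 and TB1 had none in any of the 4 libraries. By the same criteria HDS plants were higher in 0 and lower in 1 of the 10. Over all genes with at least 1 count, these criteria called 7.88%, with 4.18% higher and 3.70% lower. The gene called was OsSLB1, which rested on 9 counts. With Benjamini-Hochberg adjustment over all genes tested, 0 of the 10 passed in edgeR's exact test, against 2.38% of all genes, and 0 passed in edgeR's quasi-likelihood test, against 0.699% of the 22184 genes it tested. In the quasi-likelihood test 0 of the 6 strigolactone genes tested had an unadjusted P under 0.05, against 9.23% of all genes it tested. The 6 that edgeR's filterByExpr kept as measured well enough were OsD27, OsD10, OsD14, OsD3, OsD53 and OsIPA1. Their log2 fold changes ran from -0.27 to 0.50 with a median of 0.27, where the median of all genes kept was 0.01. An exact permutation test of single genes was not used, since 2 plants against 2 allow no P below 0.333.

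**Figure D1:**
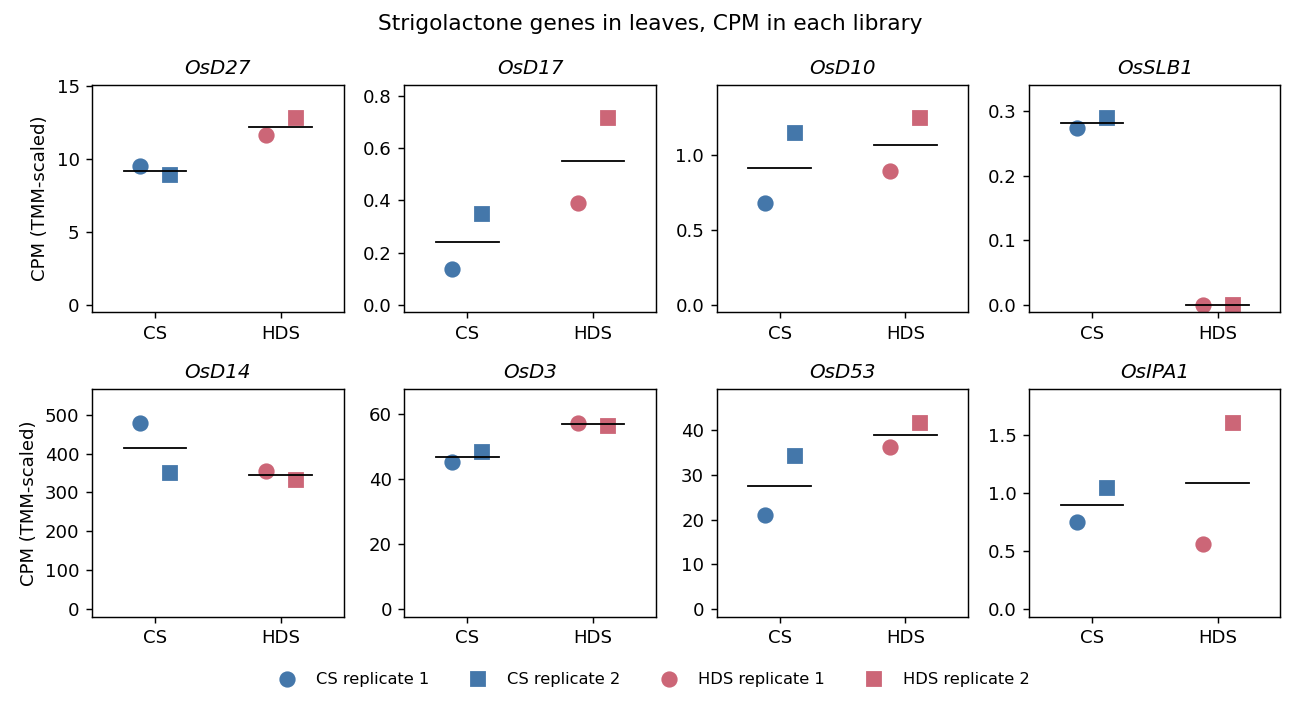
CPM of the 8 strigolactone genes with counts, 1 panel per gene with its own axis from 0; points are libraries (circles replicate 1, squares replicate 2) and lines are group means (n = 2). Both HDS points lie above both CS points for OsD27, OsD17, OsD3 and OsD53, both lie at 0 for OsSLB1, and in the OsD14 panel CS replicate 1 at 479.5 CPM is apart from the other libraries.

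OsD27 (Os11g0587000, chromosome 11), the isomerase of the first committed step, was somewhat higher in both HDS plants. It had 9.51 and 8.88 CPM in CS replicates 1 and 2, from 139 and 154.1 expected counts. In HDS replicates 1 and 2 it had 11.6 and 12.8 CPM, from 208 and 215 counts. The groups did not overlap and the replicates lay close together, at 9.20 ± 0.448 CPM (SD, n = 2) and 12.2 ± 0.810 CPM (SD, n = 2). The ratio of these means was 1.33, and the log2 fold change of 0.41 (standard error 0.08) had P = 0.140 and an adjusted P of 0.928 in edgeR's exact test. The count of 154.1 in CS replicate 2 was the only one of this gene that was not whole. The gene listed next to it, Os11g0587100, had 21.9 counts in that library and 0 in the other 3. In all, 14 genes of the table complete that fraction to a whole number, so the partner is not settled, and this one was taken because it is adjacent. A fraction of RSEM's expected count arises where a read fits more than 1 gene. Together the adjacent genes had 139 and 176 counts in CS plants, against 208 and 215 in HDS plants. The log2 fold change of the sum was 0.31 (standard error 0.08, P = 0.256 by edgeR's exact test), and the groups still did not overlap.

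OsD17 (Os04g0550600, chromosome 4) and OsD10 (Os01g0746400, chromosome 1), the pair of carotenoid cleavage dioxygenases, had few counts in these leaves, and those of OsD17 were close to the limit of detection. OsD17 had 2 and 6 counts in CS plants, against 7 and 12 in HDS plants, or 0.137 and 0.346 against 0.391 and 0.713 CPM. Its groups did not overlap, although its highest CS value and its lowest HDS value were 1 count apart. By pooled reads its ratio of HDS to CS was 2.19, with a 95% interval from 0.914 to 5.77 that covers counting error only and includes no difference. Its log2 fold change of 1.14 (standard error 0.55) had P = 0.244 in edgeR's exact test. With so few counts that standard error, taken with a larger prior count than the fold change, understates the spread. The log2 fold change of OsD17 was 0.66 without CS replicate 1 or without HDS replicate 2 and 1.93 without CS replicate 2. OsD10 had 10 and 20 counts in CS plants, against 16 and 21 in HDS plants. Its groups overlapped, and replicate 1 was the lower one in both. The pooled ratio of OsD10 was 1.13, with an interval from 0.682 to 1.90 for counting error only, with a log2 fold change of 0.21 (standard error 0.40, P = 0.776 by edgeR's exact test).

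OsSLB1 (Os01g0700900, chromosome 1), a MAX1-type P450 enzyme, was seen in both CS plants and in neither HDS plant. The CS libraries had 4 and 5 counts, or 0.274 and 0.288 CPM, and the HDS libraries had 0 and 0. If the CS mean were exact and each HDS library held 3 counts, OsSLB1 would be 1.62-fold lower in HDS plants. The 9 counts of the CS libraries have a 95% Poisson interval of 4.12 to 17.1 counts, or 0.129 to 0.535 CPM, and its lower end lies under the 0.173 CPM that 3 counts make on average in an HDS library. Neither the size of the difference nor a least fold was therefore measurable at this depth. The unadjusted P was 0.0157 and the adjusted P was 0.333 in edgeR's exact test. In edgeR's exact test the call was lost when CS replicate 2 was left out (P = 0.0567), when HDS replicate 1 or HDS replicate 2 was left out (P = 0.154 each), and DESeq2 did not make it (P = 0.0962). It held without CS replicate 1 (P = 0.0304, edgeR's exact test).

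OsSLB2 (Os01g0701400, chromosome 1), the other MAX1-type enzyme of the set, had 0 counts in all 4 libraries. Its level in these leaves can have been up to 0.205 CPM in CS replicate 1 and up to 0.178 CPM in HDS replicate 2 without being seen. Summing it with OsSLB1 and with Os01g0701500, another identifier listed for the pathway and also at 0 throughout, left 4, 5, 0 and 0 counts. The leaf reads of these 3 identifiers thus all belonged to OsSLB1.

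OsD14 (Os03g0203200, chromosome 3), the hormone receptor, was well measured and differed more between the CS plants than between the HDS plants. It had 479.5 and 350.2 CPM in CS replicates 1 and 2 and 354.7 and 333.0 CPM in HDS replicates 1 and 2. CS replicate 2 lay between the HDS libraries, so the groups overlapped. Between the CS plants the log2 ratio was 0.45, and between the HDS plants it was 0.09. The log2 fold change of HDS over CS was -0.27 (standard error 0.23), with P = 0.209 and an adjusted P of 0.991 in edgeR's exact test. This value depended on which CS plant was left out. Without CS replicate 1 the log2 fold change was -0.03, and without CS replicate 2 it was -0.50. Each of these fits leaves 1 CS plant, so the spread between CS plants cannot be measured in them. CS replicate 1 was also the library with 8612 CPM of the leaf gene Os12g0274700, whereas the leaf gene Os11g0707000 was higher in both HDS libraries than in CS replicate 1. Their part in the value of OsD14 was not tested.

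OsD3 (Os06g0154200, chromosome 6), the F-box protein of the receptor complex, was slightly higher in HDS plants and had the smallest standard error of the 7 genes with counts in both groups. CS replicates 1 and 2 had 45.2 and 48.3 CPM, and HDS replicates 1 and 2 had 57.4 and 56.4 CPM. The groups did not overlap, and their means were 46.8 ± 2.18 CPM (SD, n = 2) and 56.9 ± 0.684 CPM (SD, n = 2), a ratio of 1.22. The log2 fold change of 0.28 (standard error 0.05) had P = 0.117 and an adjusted P of 0.881 in edgeR's exact test, and it kept to the range from 0.23 to 0.31 when single libraries were left out. Its counts were not whole, and in every library they summed to a whole number with those of the next gene listed, Os06g0154300, which had at most 9.19 counts. The sum of both gave the same log2 fold change of 0.28 (P = 0.115, edgeR's exact test).

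**Figure D2:**
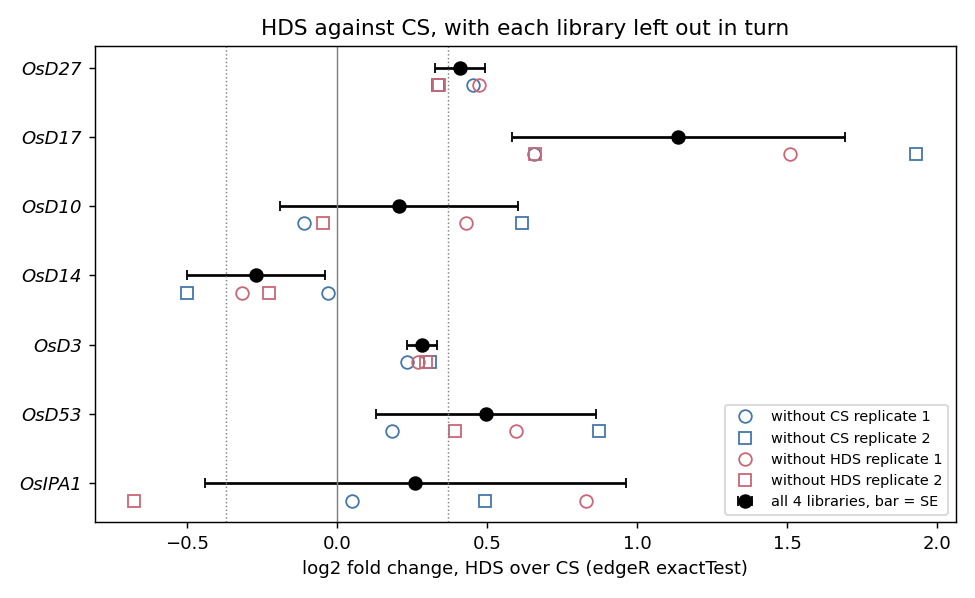
Log2 fold change of HDS over CS by edgeR's exact test for the 7 strigolactone genes with counts in both groups; black points use all 4 libraries with bars of 1 standard error, open symbols leave out the library named, and dotted lines mark the limit of 0.37. OsD3 keeps to a narrow range from 0.23 to 0.31, OsD53 spans 0.18 to 0.87, and OsD10 and OsIPA1 fall on both sides of 0.

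OsD53 (Os11g0104300, chromosome 11), the repressor that strigolactone signalling removes, had the smallest P of the genes other than OsSLB1. It had 20.9 and 34.2 CPM in CS replicates 1 and 2 and 36.2 and 41.7 CPM in HDS replicates 1 and 2. The HDS values were above the CS values, but HDS replicate 1 exceeded CS replicate 2 by little. CS plants averaged 27.6 ± 9.37 CPM (SD, n = 2) and HDS plants 38.9 ± 3.88 CPM (SD, n = 2), a ratio of 1.41. HDS over CS, its log2 fold change came to 0.50 (standard error 0.37), with P = 0.0736 and an adjusted P of 0.741 in edgeR's exact test. In the same exact test it was 0.18 (P = 0.356) without CS replicate 1 and 0.87 (P = 4e-05) without CS replicate 2.

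The counts of OsD53 were not whole in any library, and 1 gene alone of the table completed them in all 4. This was Os12g0104300 on chromosome 12, whose 594.76 counts in CS replicate 1 summed with the 306.24 of OsD53 to 901. The sums in CS replicate 2, HDS replicate 1 and HDS replicate 2 were 1235, 1489 and 1498. RefSeq's gene table lists a gene on chromosome 12 under the name D53-L, but no table used here pairs that name with this identifier. OsD53 received 34.0% and 48.0% of the pair's counts in CS replicates 1 and 2, and 43.5% and 46.9% in HDS replicates 1 and 2. The low value of OsD53 in CS replicate 1 thus went with a low share of the pair, while Os12g0104300 itself averaged 38.9 ± 2.62 CPM (SD, n = 2) for CS and 47.1 ± 0.198 CPM (SD, n = 2) for HDS. RSEM's division of reads between the pair and a difference in OsD53 in that plant cannot be told apart.

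**Figure D3:**
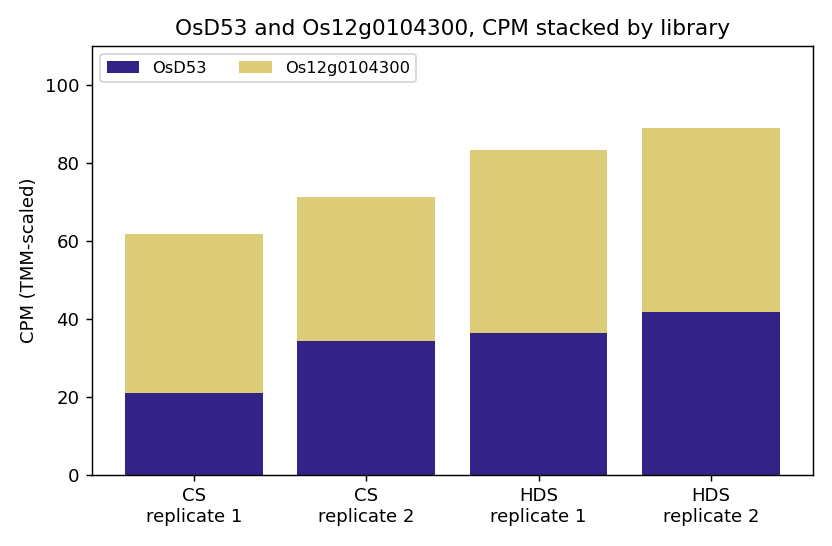
Stacked bars of CPM for OsD53 and for Os12g0104300 in each of the 4 libraries. The sum goes from 61.7 CPM in CS replicate 1 and 71.2 CPM in CS replicate 2 to 83.2 and 89.0 CPM in the HDS libraries, and the part given to OsD53 is smallest in CS replicate 1.

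A sum is free of that division. Summed, OsD53 and Os12g0104300 averaged 66.4 ± 6.75 CPM (SD, n = 2) for CS and 86.1 ± 4.07 CPM (SD, n = 2) for HDS. The groups did not overlap, and the spread between CS plants was smaller than for OsD53 alone, relative to the mean. The log2 fold change of the sum was 0.37 (standard error 0.11), with P = 0.0405 in edgeR's exact test. At 0.374 before rounding it met the study's criteria by a margin of less than 0.01 on the log2 scale. Its adjusted P over all genes was 0.570 in the same edgeR test. Without CS replicate 1 the sum's log2 fold change was 0.27, and without CS replicate 2 it was 0.46. Without HDS replicate 1 and HDS replicate 2 it was 0.42 and 0.32. Without CS replicate 1 and without HDS replicate 2 it was thus under the limit of 0.37.

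The receptor and the repressor can be set against each other within a library, where depth and scaling cancel. The expected counts of OsD14 were 22.9 and 10.2 times those of OsD53 in CS replicates 1 and 2, and 9.79 and 7.98 times in HDS replicates 1 and 2. With Os12g0104300 added to OsD53, the ratios were 7.78 and 4.92 for CS and 4.26 and 3.74 for HDS. In both forms the CS libraries had the higher ratios, and the distance between the CS plants was larger than that between CS replicate 2 and either HDS plant. The ratios are not corrected for transcript length and carry no test, since they combine genes whose values were already known.

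**Figure D4:**
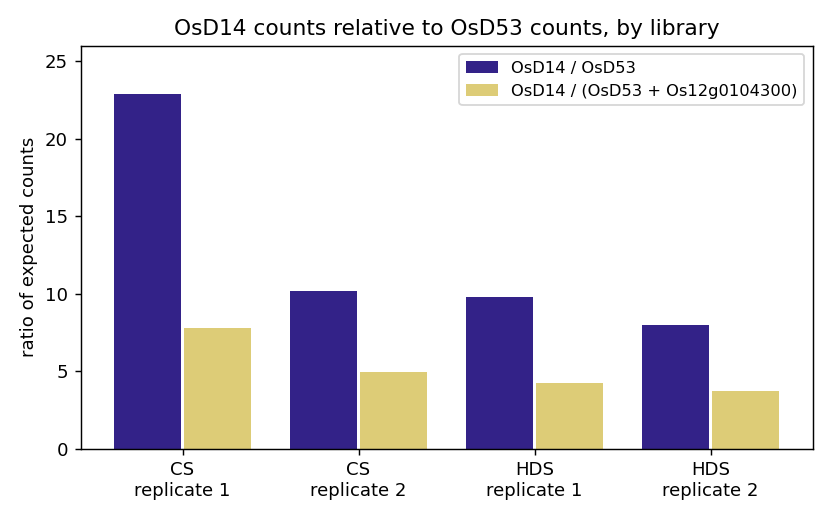
Bars give the ratio of the expected counts of OsD14 to those of OsD53, and to those of OsD53 and Os12g0104300 together, in each library. CS replicate 1 has the highest ratio in both forms, 22.9 and 7.78, and the other 3 libraries lie between 7.98 and 10.2 and between 3.74 and 4.92.

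At the end of the pathway, little of the branching regulators was found in these leaves. TB1 (Os03g0706500, chromosome 3), which acts in axillary buds, had 0 counts in all 4 libraries, with the same limits as for OsSLB2. OsIPA1 (Os08g0509600, chromosome 8), a squamosa promoter binding protein-like factor, had 11 and 18 counts in CS plants, against 10 and 27 in HDS plants. HDS replicates held both its lowest and its highest value, 0.559 and 1.60 CPM, so the groups overlapped fully. Its pooled ratio of HDS to CS was 1.17, with a 95% interval from 0.703 to 1.98 for counting error only. The log2 fold change was 0.26 (standard error 0.70, P = 0.763 by edgeR's exact test), and leaving out HDS replicate 2 turned it to -0.68.

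Among the 6 genes that filterByExpr kept, the HDS libraries were both above the CS libraries for 3, namely OsD27, OsD3 and OsD53, and below for 0. Of all genes kept, 40.5% did not overlap, with 21.2% above and 19.3% below. Log2 fold changes were above 0 for 5 of the 6, OsD14 being the exception, against 51.3% of all genes kept. CS replicate 1 was the lowest of the 4 libraries for 3 of the 6, which were OsD10, OsD3 and OsD53, against 35.3% of all genes kept. With 6 genes these counts describe the set and were not tested.

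A wider list of 33 identifiers was drawn up for the supply of carotenoids, further cleavage and MAX1-type enzymes, receptor relatives, repressors, corepressors and branching regulators. Of the 33, 28 had counts, 5 had 0 in all libraries, and 24 were kept by filterByExpr. By the study's criteria 0 of the list were higher and 0 lower in HDS plants, against 4.18% and 3.70% of all genes with at least 1 count. The smallest P of the list in edgeR's exact test was 0.0529. Counts for single tests differed. In the quasi-likelihood test 0 of the 24 had an unadjusted P under 0.05, against 9.23% of all genes it tested. In DESeq2 0 of the list met the criteria, against 1751 of the 29698 genes with at least 1 count. In the quasi-likelihood test without the filter 1 of the list did, against 2555 of those 29698 genes. The median log2 fold change of the 24 was 0.07, and 17 of them were above 0. Over all genes kept the median was 0.01, and 51.3% were above 0. The paper names 4 genes of this list. OsTAD1 (Os03g0123300), a cell cycle regulator of tillering, had 356 and 403 counts in CS plants, against 432 and 453 in HDS plants, and a log2 fold change of 0.10 (standard error 0.09, P = 0.635 by edgeR's exact test). OsMADS57 (Os02g0731200), a MADS factor linked to the control of OsD14, had 662 and 719 against 761 and 782 counts, for a log2 fold change of 0.04 (standard error 0.09, P = 0.850 by edgeR's exact test). OsLAX2 (Os04g0396500), needed for axillary meristems, had between 48 and 66 counts per library with a log2 fold change of 0.13, and OsMOC1 (Os06g0610350), a GRAS factor of tiller bud formation, had between 2 and 8.

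The smallest P of the wider list belonged to Os02g0221900, which no source used here pairs with a name. It had 1007 and 1832 counts in CS plants, against 2088 and 2090 in HDS plants, and its groups did not overlap in CPM. Its log2 fold change was 0.46 (standard error 0.31, P = 0.0529 by edgeR's exact test). The CS plants differed, with 68.9 and 105.6 CPM in replicates 1 and 2, against 116.7 and 124.1 CPM in HDS replicates 1 and 2. Without CS replicate 2, which left only the lower CS library, the log2 fold change of Os02g0221900 was 0.78 in edgeR's exact test. With any other library left out it did not meet the study's criteria. The lowest log2 fold change of the list, -1.17 (standard error 1.69), was that of Os03g0437200, with 17, 24 and 20 counts in CS replicate 1, CS replicate 2 and HDS replicate 1 and 0 in HDS replicate 2. That library alone set its value, and the exact test of edgeR gave P = 0.399.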

How the data were processed

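Leaf RNA of 2 CS and 2 HDS plants was sequenced, and the authors deposited expected counts per gene from RSEM, without normalization. The submitters' processing notes name FastQC 0.11.7, Trimmomatic, Bowtie2, RSEM, edgeR 3.26.3 and the build IRGSP-1.0. The labels name a TruSeq Stranded kit and the paper a NEBNext directional kit. Between 12.7% and 14.7% of a library's values were not whole. Counts were rounded, and R 4.3.3 was used with edgeR (version 4.0.16) and DESeq2 (version 1.42.0).

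The main test was edgeR's exactTest, stated by the study, after TMM normalization and estimateDisp on the 29698 genes with at least 1 count. The quasi-likelihood test took the 22184 genes that filterByExpr kept. P-values were adjusted by Benjamini-Hochberg over all genes tested. Standard errors come from log2 CPM (prior count 2) within groups. The fold changes of the exact test use a prior count of 0.125. For genes with few counts the standard errors, also as bars in the figure, are therefore too small beside them. The exact test, the quasi-likelihood test with the filter and DESeq2 were tested on simulated data. Only genes with higher counts were changed there, so genes with as few counts as OsSLB1 were not covered. Genes sharing reads were sought as those whose expected counts complete a gene's counts to a whole number, to within 0.015, in all 4 libraries.

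Members and lists were chosen with earlier results of these data known. Every strigolactone gene was named. From the wider list, genes meeting the criteria, genes sharing reads and relatives were to be named. Of the identifiers without a name in the sources, Os02g0221900 and Os03g0437200 were given singly after their values were seen. Os12g0104300 and Os01g0701500 were given for their sums with members, and the others were only counted. RefSeq's gene table (assembly ASM3414082v1) matched 0 of these identifiers, so gene length, coordinates and sequences were not used here.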

Additional observations from a re-analysis of the deposited data

How the results depend on the processing

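Alternatives were other normalizations (DESeq2's size factors, upper quartile, total counts), filterByExpr, the quasi-likelihood test, a replicate block, DESeq2, counts not rounded, other prior counts, summed genes and each library left out. Of the 104 values of single genes under these, 3 changed direction: OsD10 was -0.11 without CS replicate 1 and -0.05 without HDS replicate 2, in a range up to 0.62 with a library left out, and OsIPA1 was -0.68 without HDS replicate 2, in a range up to 0.83. The causes were not tested. The 2340 genes that met the study's criteria became 707 with adjusted P-values, and lay between 1132 and 5430 with a library left out. The count of 1 strigolactone gene became 0 under filterByExpr, which removed OsSLB1, and 0 in DESeq2 and with adjusted P-values, and lay between 0 and 2 with a library left out, the 2 being OsD14 and OsD53 without CS replicate 2. The count of 0 on the wider list became 1 with total counts and 1 in the quasi-likelihood test without the filter, both times Os02g0221900, and lay between 0 and 3 with a library left out. The 155 genes of the adjusted quasi-likelihood test became 419 without the filter and lay between 64 and 2508 with a library left out. OsSLB1's fitted log2 fold change depends on the prior count and is no measure of its size. Sums for OsD3 and OsD27 and leaving libraries out of the sum for OsD53 were added after the data were seen. With a library left out, 1 group holds 1 plant, whose spread cannot be measured. Counts of genes passing in those fits are therefore not comparable with the main test.

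The labels do not say whether equal replicate numbers mark pairs. The deviations of CS replicate 1 and HDS replicate 1 from their group means correlated across genes with r = 0.00396. This shows no shift across genes shared by replicate number, but it cannot settle how plants were grown or handled. With the replicate number as a block, the quasi-likelihood test gave 535 genes in place of 155. Without the filter 2825 genes met the criteria under this block, among them 2 identifiers of the wider list (Os02g0221900 and Os03g0437200). Under this block OsD53 met them in edgeR (log2 fold change 0.54, adjusted P = 0.203, unadjusted P = 0.0118) and OsSLB1 did not (unadjusted P = 0.0622).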
